A study of Mus musculus with 25 samples.

Results

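Spin1 and H3K4me3 peaks were described at the genes of the 4 myogenic regulatory factors, Myf5, Myf6, Myod1 and Myog, out of 26180 gene symbols with curated RefSeq transcripts, of which 21000 were protein-coding. The genes were chosen by name, and every deposited peak at TSS±1 kb, in the gene body or within 150 kb on either side was taken. Myf6 and Myf5 lie 6713 bp apart on chromosome 10, so their windows were joined into 1 locus of 312 kb, beside loci of 303 kb each around Myod1 on chromosome 7 and Myog on chromosome 1. Of 17106 Spin1 and 30763 H3K4me3 peaks, 29 and 27 fell into the 3 loci. Distal Spin1 peaks, outside TSS±1 kb of every gene and outside the 4 genes themselves, were present at Myod1 and Myog only. The Myf6 and Myf5 locus had 0 of them.

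The series asks what the chromatin reader Spin1 does in skeletal muscle, and holds 25 samples. The peaks come from primary myoblasts of C57BL/6 mice (C57BL/6 N in the study's methods) without a Spin1 deletion, isolated by preplating from front and hind limb muscle of 10-day-old animals and grown in culture. There was 1 library with a custom Spin1 antibody, 1 with an H3K4me3 antibody, whose label on the antibody itself reads anti-H3K4me, and 1 input library without antibody that served as the background for peak calling. The 22 RNA-seq samples of control and Spin1-deleted muscle were not used here. With 1 library per antibody there is no replicate error and no test: all counts, widths and scores below describe these libraries. Only peak positions and scores were analysed, so the number of reads behind a peak is unknown, and a missing peak means only that none was listed. In a bulk culture, binding in fewer cells and weaker binding per cell cannot be told apart.

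The myogenic regulatory factors are basic helix-loop-helix proteins that bind E-boxes, the letters CANNTG, together with ubiquitous E proteins. Myf5 and Myod1 commit cells to the muscle lineage, Myog drives the fusion and terminal differentiation of myoblasts, and Myf6, also called Mrf4, acts both in the embryo and in mature fibers. Myod1 and the Myf6 and Myf5 pair are textbook cases of genes that are controlled by enhancers far from their promoters. Spin1 binds histone H3 trimethylated at lysine 4, a mark of active promoters.

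The following sequences show what lies under the peaks that the account turns on. They are the promoters of Myf5 and Myog, from 250 bases before to 50 bases after the start of transcription as listed by RefSeq for GRCm38, followed by the 300 bases with most E-boxes inside 3 distal Spin1 peaks. These are the peak with the highest score and no H3K4me3 at Myod1, the peak with the highest score among those that met H3K4me3 at Myod1, and the peak with most CAGCTG letters per kb at Myog. Capitals mark CANNTG, which reads alike on both strands and includes CAGCTG as well as CAGGTG, whose reverse is CACCTG.
Myf5 promoter, GRCm38 chr10:107486085-107486384, minus strand: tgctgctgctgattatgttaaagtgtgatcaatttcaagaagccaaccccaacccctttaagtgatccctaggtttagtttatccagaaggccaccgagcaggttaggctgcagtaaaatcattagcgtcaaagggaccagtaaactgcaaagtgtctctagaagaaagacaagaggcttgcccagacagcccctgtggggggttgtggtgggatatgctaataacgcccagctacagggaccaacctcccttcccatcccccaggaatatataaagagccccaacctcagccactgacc
Myog promoter, GRCm38 chr1:134289754-134290053, plus strand: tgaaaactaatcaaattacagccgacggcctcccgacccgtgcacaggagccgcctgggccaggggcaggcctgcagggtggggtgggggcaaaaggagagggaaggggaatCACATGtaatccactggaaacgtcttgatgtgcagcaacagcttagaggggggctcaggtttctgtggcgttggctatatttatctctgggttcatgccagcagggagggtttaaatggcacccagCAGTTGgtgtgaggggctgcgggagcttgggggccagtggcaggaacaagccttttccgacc
Myod1 distal Spin1 peak without H3K4me3, GRCm38 chr7:46339473-46339772, plus strand: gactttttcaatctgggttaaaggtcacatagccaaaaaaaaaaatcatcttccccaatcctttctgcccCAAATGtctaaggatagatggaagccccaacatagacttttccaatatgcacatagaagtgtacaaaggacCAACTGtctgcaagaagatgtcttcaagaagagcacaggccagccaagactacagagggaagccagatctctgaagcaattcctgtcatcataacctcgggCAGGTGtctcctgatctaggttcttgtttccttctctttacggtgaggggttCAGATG
Myod1 distal Spin1 peak that partly meets H3K4me3, stretch outside H3K4me3, GRCm38 chr7:46347666-46347965, plus strand: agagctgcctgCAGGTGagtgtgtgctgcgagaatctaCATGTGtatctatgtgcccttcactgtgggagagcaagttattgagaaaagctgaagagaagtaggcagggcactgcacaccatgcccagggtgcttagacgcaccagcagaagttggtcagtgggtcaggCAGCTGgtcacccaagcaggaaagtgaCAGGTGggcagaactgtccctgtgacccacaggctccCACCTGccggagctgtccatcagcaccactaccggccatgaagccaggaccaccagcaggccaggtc
Myog distal Spin1 peak, GRCm38 chr1:134244948-134245247, plus strand: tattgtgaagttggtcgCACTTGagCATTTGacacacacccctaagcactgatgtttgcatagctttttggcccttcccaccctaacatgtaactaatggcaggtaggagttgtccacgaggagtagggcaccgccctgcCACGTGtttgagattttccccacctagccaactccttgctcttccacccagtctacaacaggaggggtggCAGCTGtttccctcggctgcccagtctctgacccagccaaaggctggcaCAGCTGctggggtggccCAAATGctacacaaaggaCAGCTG

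Spin1 was present at TSS±1 kb of 3 of the 4 genes, namely Myf5, Myod1 and Myog, and H3K4me3 at all 4. Among all protein-coding genes, 56.7% had a Spin1 and 68% an H3K4me3 peak in that window, so occupied promoters as such were common. Myf6 was the member with H3K4me3 and no Spin1, a state found at 11.3% of protein-coding genes. The MACS score is −log10 of the p-value against input multiplied by 10. Scores piled up at 3100, called the ceiling here, which 30.9% of Spin1 and 45.2% of H3K4me3 peaks met or passed. Few passed it: 98.8% of Spin1 and 99.7% of H3K4me3 peaks scored 3100 or less. Peaks at exactly 3100 have no order among themselves.

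**Figure D1:**
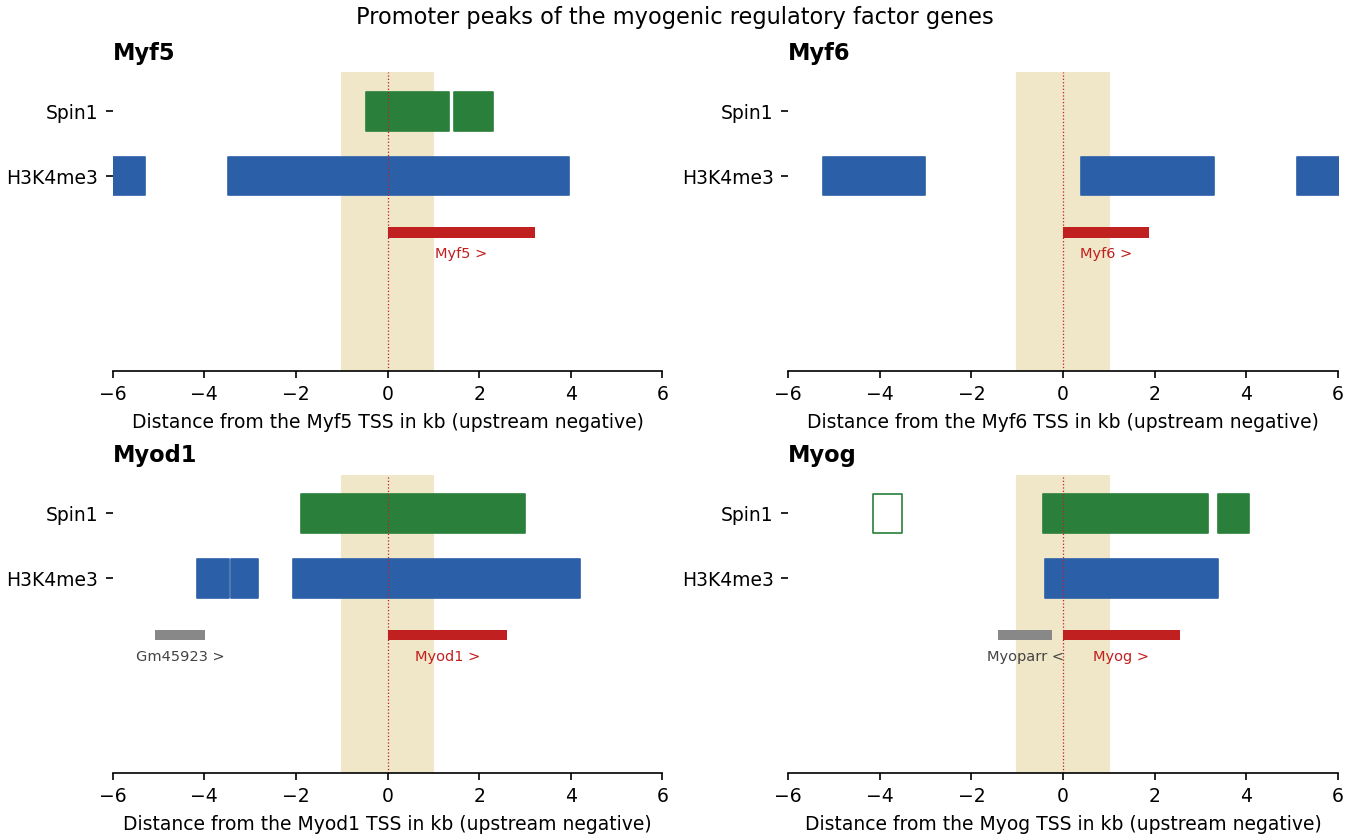
Spin1 peaks (green) and H3K4me3 peaks (blue) by distance in kb from the TSS of each myogenic regulatory factor, drawn to scale with genes below (red for members, gray for others, arrowheads for the direction of transcription). The shaded band is TSS±1 kb, open green bars are Spin1 peaks without H3K4me3, and the Myf6 panel holds no Spin1 peak.

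Myf5, the determination factor that comes on early in muscle precursors, lies at chr10:107482908-107486134 on the minus strand with 3 exons. Its promoter carried a Spin1 peak of 1813 bp at chr10:107484782-107486594 with a score of 1495, from 460 bp upstream to 1352 bp downstream of the TSS. A further Spin1 peak of 855 bp and a score of 224, at chr10:107483822-107484676, lay in an intron of Myf5, between 1.46 and 2.31 kb downstream. Both lay within an H3K4me3 peak of 7449 bp at the score ceiling, chr10:107482163-107489611, which spread from 3477 bp upstream to 3971 bp downstream and covered the whole gene. Spin1 took up 35.8% of that H3K4me3 domain. The 2 marks therefore had different extents at Myf5. Of genes with an H3K4me3 promoter peak, 3.82% had 1 at least as wide. For the Spin1 promoter peak of 1813 bp taken alone, 70.5% of genes with such a peak had 1 at least as wide. That rank depends on how the peaks were split: with peaks less than 1 kb apart joined, the 2 Spin1 peaks became 1. The width of the joined peak was not ranked.

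Myf6, the family member most abundant in mature fibers, lies upstream of Myf5 at chr10:107492848-107494723, also on the minus strand. Its TSS is 8589 bp from that of Myf5. H3K4me3 formed a peak of 2890 bp with a score of 2308 at chr10:107491435-107494324, beginning 399 bp and ending 3288 bp downstream of the TSS, and thus not over the TSS itself. It covered 78.7% of the gene, and 60.6% of genes with H3K4me3 at the promoter had a peak at least as wide. No Spin1 peak lay in this domain, and the nearest was 4840 bp away, at the Myf5 promoter. A further H3K4me3 peak of 2237 bp with a score of 889, chr10:107497734-107499970, lay between 3.01 and 5.25 kb upstream of Myf6 with no gene annotated there and the nearest Spin1 peak 11139 bp away.

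Myod1, the factor that can convert other cells to muscle, lies at chr7:46376474-46379092 on the plus strand. A Spin1 peak of 4891 bp at the score ceiling, chr7:46374582-46379472, reached from 1892 bp upstream to 2998 bp downstream of the TSS and covered the gene from end to end. Only 3.05% of genes with a Spin1 promoter peak had 1 this wide, against a median of 2295 bp over 11911 genes. It lay inside an H3K4me3 peak of 6275 bp, chr7:46374410-46380684, of which it filled 77.9%. H3K4me3 was at least as wide at 7.19% of genes with the mark, with a median of 3250 bp over 14281 genes.

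Myog, myogenin, lies at chr1:134290004-134292548 on the plus strand. Spin1 spanned 3621 bp at the score ceiling, chr1:134289558-134293178, from 446 bp upstream to 3174 bp downstream of the TSS. H3K4me3 was nearly congruent, with 3773 bp at the ceiling from 383 bp upstream to 3389 bp downstream, chr1:134289621-134293393. Spin1 filled 94.5% of it, the highest share of the 4 genes. Widths were less unusual than at Myod1: 13.1% of genes with Spin1 and 36.6% of genes with H3K4me3 at the promoter had peaks at least as wide. The same peaks also took in the TSS of Myoparr, a noncoding RNA that is transcribed away from Myog, so its promoter cannot be told apart from that of Myog.

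Both peaks at Myog lay mostly on the transcribed side. Of the Spin1 peak 87.7% was downstream of the TSS, compared with 74.6% at Myf5, 61.3% at Myod1 and a median of 65.8% over 11504 genes whose TSS lay in a Spin1 peak. In absolute terms, 4.44% of those genes had Spin1 reaching as far downstream as at Myog, 5.43% as far as at Myod1 and 53.7% as far as at Myf5. For H3K4me3, 89.8% of the peak lay downstream of the Myog TSS, 67.1% at Myod1 and 53.3% at Myf5, with a median of 65.4% over 13995 genes.

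Because the genes are short, single peaks could span them. Spin1 peaks covered all of Myod1 and Myog, 68.4% of Myf5 and none of Myf6. Among the 3412 protein-coding genes no longer than the 3227 bp of Myf5, 6.68% were covered whole by Spin1 peaks and 76.7% carried none. H3K4me3 covered all of Myf5, Myod1 and Myog, a state found at 13.9% of the short genes, while 69.9% carried none. Both shares of genes covered whole are thus over short genes with and without a peak.

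Over their whole length, the promoter peaks were poor in CpG. Peak lengths differ between genes, and wide peaks also take in sequence outside the promoter window. The ratio of observed to expected CpG was 0.25 in the Spin1 peak of Myog, 0.37 at Myf5 and 0.47 at Myod1, where 11797 Spin1 peaks at promoters had a median of 0.61 and quartiles of 0.51 and 0.71. Ratios no higher than these were found in 2.80%, 7.76% and 17.6% of such peaks. All 3 members were thus below the lower quartile. The H3K4me3 peaks were also low, with 0.25 at Myog, 0.33 at Myf5, 0.36 at Myf6 and 0.40 at Myod1 against a median of 0.51 over 14605 promoter peaks. In the Spin1 peaks GC content was nearer to the rest, with 50.8% at Myf5, 54.8% at Myod1 and 54.0% at Myog and a median of 53.4% over all. In the H3K4me3 peaks it was 44.3% at Myf5, 44.9% at Myf6, 53.8% at Myod1 and 53.4% at Myog, with a median of 51.2%.

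**Figure D2:**
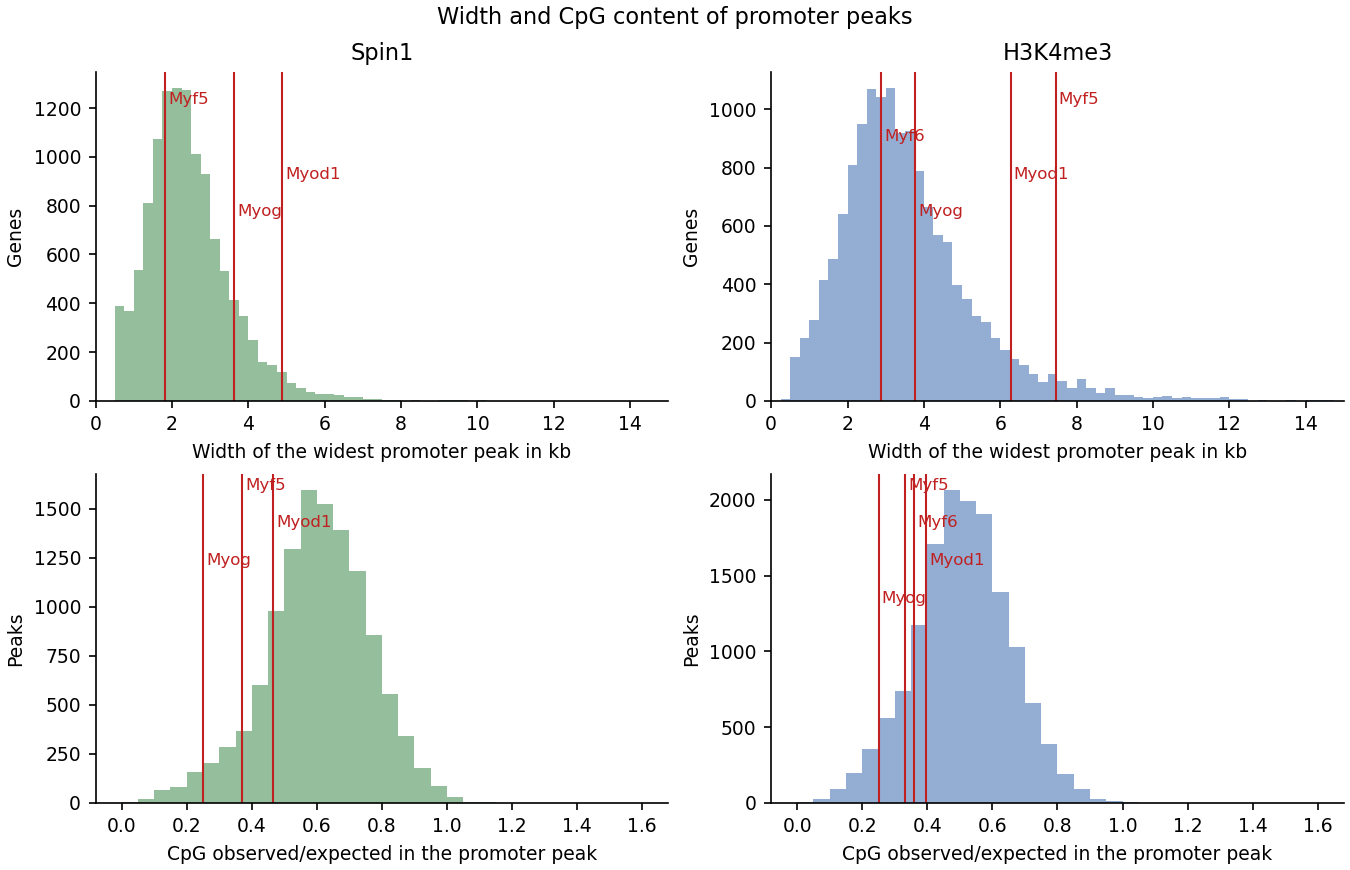
Histograms over all genes or promoter peaks for Spin1 (left, green) and H3K4me3 (right, blue), with red lines at the members. Upper panels give the width of the widest promoter peak per gene in kb and lower panels the ratio of observed to expected CpG per peak; Myod1 lies in the right tail of Spin1 width and Myog, at 0.25, in the left tail of CpG content.

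E-boxes in the promoters differed between Myf5 and Myog. The Myf5 sequence above held 0 E-boxes and 3 CpG, while the Myog sequence held CACATG at bases 113 to 118 and CAGTTG at bases 239 to 244 and 9 CpG. CANNTG occurred in 72.3% of 32851 RefSeq promoters of this length, CAGCTG in 16.3% and CAGGTG in 20.2%. An exact match to the MEF2 consensus, YTAWWWWTAR, was in neither sequence and in 3.19% of all promoters. Here Y stands for C or T, W for A or T and R for A or G. The Myog sequence held CTATATTTAT, which departs from that pattern in its last letter only. Over the whole Spin1 promoter peaks, CAGCTG was found 5 times at Myod1, 1 time at Myog and 0 times at Myf5. This was 1.02 per kb at Myod1, a density met or passed by 17.9% of promoter peaks, and 0.28 per kb at Myog, where the median over all was 0.44. Such matches are letters in a window and not sites of binding.

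Beyond the promoters the 3 loci parted. Within 150 kb, Spin1 had 2 peaks at Myf6 and Myf5, 11 at Myod1 and 16 at Myog, and H3K4me3 had 3, 8 and 16. Spin1 peaks covered 0.86% of the Myf6 and Myf5 window, 4.86% of the Myod1 window and 6.94% of the Myog window. The windows also differ in genes: they hold the TSS of 2, 4 and 9 protein-coding genes. At Myod1, 1 Spin1 peak lay at a neighbouring promoter and 9 were distal, and at Myog 5 lay at neighbouring promoters and 10 were distal.

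**Figure D3:**
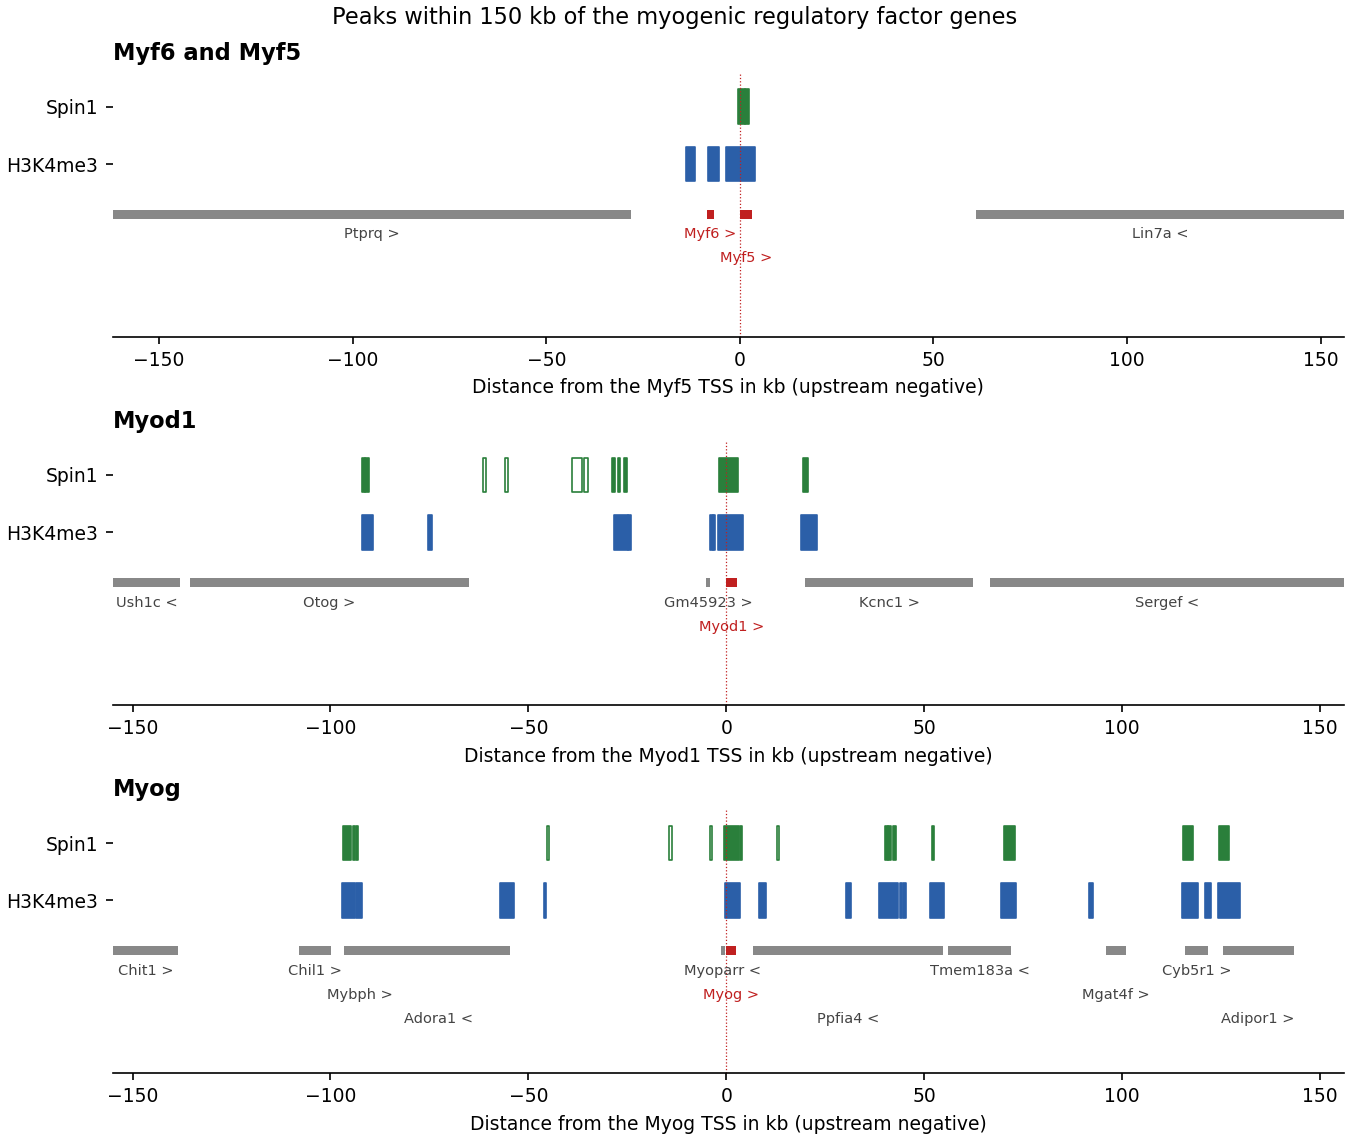
Spin1 peaks (green, open where no H3K4me3 peak overlaps) and H3K4me3 peaks (blue) within 150 kb of the genes, to scale, by distance in kb from the TSS of Myf5, Myod1 and Myog, with members in red and other genes in gray. The Myf6 and Myf5 locus holds peaks near the 2 genes only, whereas 9 distal Spin1 peaks lie upstream of Myod1 and 10 lie on both sides of Myog.

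Around Myf6 and Myf5, the flanking genes Ptprq, a receptor phosphatase, and Lin7a, a scaffold protein, reach into the window with their gene bodies, but have their TSS outside it. No Spin1 or H3K4me3 peak was listed in the window apart from the 5 given above. Counted from either TSS and with gene bodies not set aside, the intronic Myf5 peak was the only distal Spin1 peak, and 49.9% of protein-coding genes had none at all by that count.

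All 9 distal Spin1 peaks of Myod1 lay upstream, between 24.99 and 91.9 kb from its TSS. Counted over protein-coding genes, 0.814% had at least 9 distal Spin1 peaks within 150 kb, and the median was 1. Neighbouring genes share windows and peaks, so these genes are not independent of each other. Among the 7940 genes with no more than 3 other protein-coding TSS in the window, the number at Myod1, 24 genes or 0.302% had as many.

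The distal Spin1 peak with the highest score in the 3 loci lay at chr7:46337524-46339907, between 36.6 and 39.0 kb upstream of Myod1, with 2384 bp and a score of 699.7. It was intergenic, had its nearest H3K4me3 peak 8144 bp away, and held 13 E-boxes, of which 1 was CAGCTG and 1 CAGGTG. This was 5.45 E-boxes per kb, where the 19 distal Spin1 peaks ranged from 2.91 to 14.0 per kb. The part of this peak with most E-boxes is the first of the Myod1 sequences above. A peak of 939 bp and a score of 228 followed on its promoter side at chr7:46340500-46341438, with 6 E-boxes and the nearest H3K4me3 6613 bp away. Farther out, chr7:46315112-46315881 had 770 bp, a score of 197 and 2 CAGCTG at 60.6 to 61.4 kb, and chr7:46320680-46321367 had 688 bp and a score of 88.2, the lowest of the 19 distal Spin1 peaks of these loci, at 55.1 to 55.8 kb. These 4 were the distal Spin1 peaks of Myod1 without H3K4me3, and 0.348% of protein-coding genes had at least 4 such peaks.

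The other 5 distal peaks of Myod1 fell into 2 H3K4me3 domains. The nearer domain, chr7:46348052-46351587, was 3536 bp wide with a score of 1220 and lay in intergenic sequence between 24.9 and 28.4 kb upstream. The 3 Spin1 peaks with scores of 167, 102 and 137 filled 52.9% of it: chr7:46347666-46348440, chr7:46349054-46349741 and chr7:46350690-46351483. The outermost of them extended beyond the domain, with 50.2% of its length inside, and held 8 E-boxes, 5 of them CAGGTG. Its first 300 bases, which lie outside the H3K4me3 domain, are shown above, with 5 E-boxes. The farther domain, chr7:46284365-46287287, was 2923 bp wide with a score of 1060, lay in Otog, an inner ear protein gene with no peak of either list at its TSS, and contained Spin1 peaks with scores of 106 and 162 at chr7:46284556-46285229 and chr7:46285246-46286112. The nearest protein-coding TSS was that of Myod1 for 7 of the 9 distal peaks and that of Otog for these 2.

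Downstream of Myod1 the only Spin1 peak was that of Kcnc1, a potassium channel gene, at chr7:46395940-46397175 with 1236 bp and a score of 389. It filled 30.9% of an H3K4me3 peak of 4003 bp at the ceiling. Remaining H3K4me3 peaks at Myod1 without Spin1 were narrow and weak, with widths of 588 to 942 bp and scores of 54.4 to 188, and included 1 within 1 kb of the TSS of the noncoding RNA Gm45923.

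Myog had distal Spin1 peaks on both sides, 5 upstream and 5 downstream. In all, 0.39% of protein-coding genes had at least 10 within 150 kb. The nearest protein-coding TSS was that of Myog for 4 of the 10, Ppfia4 for 3, Mybph for 2 and Adora1 for 1. The peaks nearest to Ppfia4 and Mybph lay 1179 to 2901 bp from the TSS of those genes, not far outside the promoter window. Of the 15153 genes with no more than the 8 other protein-coding TSS that Myog has in its window, 47 genes or 0.310% had as many. This set, like that used for Myod1, also holds genes with fewer neighbours. Genes with the same number of neighbours were not compared on their own. Peaks without H3K4me3 again numbered 4, which 0.348% of protein-coding genes reached.

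The distal Spin1 peaks nearest to Myog were weak. The peak at chr1:134285845-134286492, 3.51 to 4.16 kb upstream, had 648 bp, a score of 147 and 2 E-boxes, and lay 3128 bp from the H3K4me3 peak of the promoter. Another at chr1:134293385-134294072, 3.38 to 4.07 kb downstream and past the gene end, had 688 bp and a score of 117, and met the H3K4me3 peak with 1.31% of its length. At chr1:134275422-134276242, 13.8 to 14.6 kb upstream, a peak of 821 bp had a score of 144. At chr1:134302700-134303383, 12.7 to 13.4 kb downstream in an intron of Ppfia4, a peak of 684 bp had a score of 119. The nearest protein-coding TSS was that of Myog for these 4. With noncoding genes counted too, the TSS of Myoparr was nearest to the upstream peaks, at 3269 and 13519 bp.

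Farther from Myog, a Spin1 peak at chr1:134244619-134245259, 44.7 to 45.4 kb upstream and nearest to Adora1, an adenosine receptor gene, was the richest in CAGCTG of the 19 distal peaks, with 3 in 641 bp or 4.68 per kb. It had 9 E-boxes and a score of 116, and is the last of the sequences above. It was counted as without H3K4me3, although a weak H3K4me3 peak with a score of 67.9 ended 28 bp away. The remaining distal peaks lay near promoters of other genes with H3K4me3. A pair with scores of 115.21 and 108.24 was in introns of Mybph, the gene of a myosin-binding protein of muscle, 93.0 to 94.3 kb upstream. Another 3 with scores of 115, 249 and 119 were in introns of Ppfia4, which encodes a liprin, 40.2 to 52.6 kb downstream.

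Neighbouring promoters accounted for 5 Spin1 peaks of the Myog window, each together with H3K4me3. Mybph carried 2110 bp with a score of 717, and Ppfia4 carried 684 bp with a score of 103. Tmem183a, a membrane protein gene, had 2677 bp at a score of 3100. Cyb5r1, a cytochrome b5 reductase gene, had 2455 bp at 3152, and Adipor1, an adiponectin receptor gene, had 2485 bp at 3100. By contrast, Adora1 had an H3K4me3 peak of 3634 bp at the ceiling and its nearest Spin1 peak 8145 bp away. A further strong H3K4me3 peak without Spin1 lay over an exon of Ppfia4 8.31 to 9.92 kb downstream of Myog, with 1609 bp and a score of 2654.

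**Figure D4:**
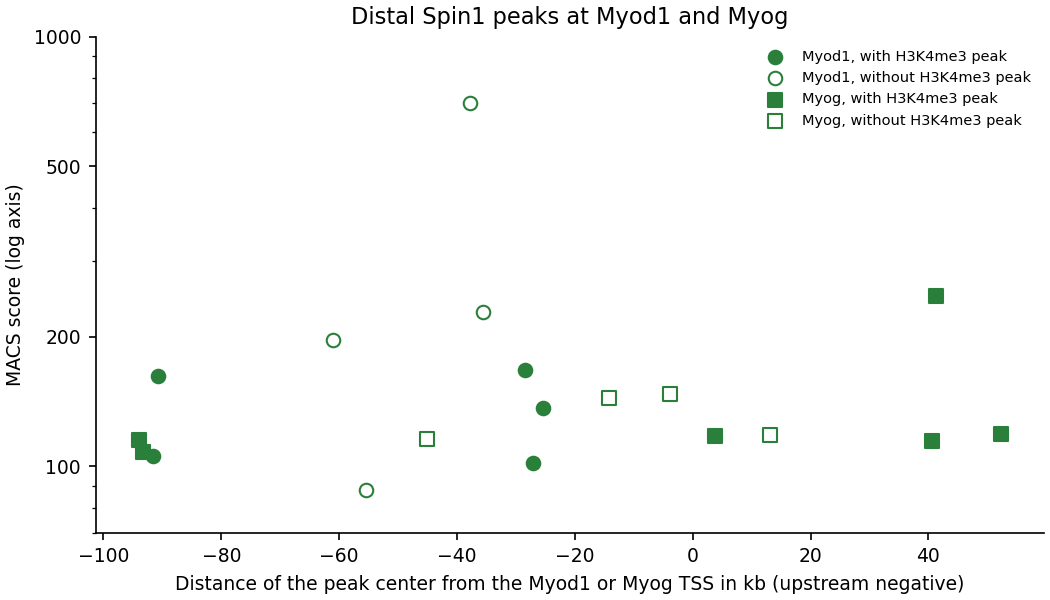
MACS score (log axis) of the 19 distal Spin1 peaks by the distance in kb of the peak center from the TSS of Myod1 (circles) or Myog (squares), filled where an H3K4me3 peak overlaps and open where none does. A single peak upstream of Myod1 reaches 699.7, and 16 of the 19 lie under 200.

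As a class, the 19 distal Spin1 peaks had scores from 88.2 to 699.7 with a median of 119, and widths from 641 to 2384 bp with a median of 688 bp. The 5309 distal Spin1 peaks of the genome had a median score of 145 and a median width of 768 bp. Of the 19, 16 had a score under 200, compared with 64.4% of all. H3K4me3 overlapped 11 of 19, compared with 3852 of 5309. The 8 without it had a median score of 146 and the 11 with it 117, the other way round from all distal peaks, where the medians were 118 and 170. With so few peaks this order is a description only. Their centers lay in introns for 8 and between genes for 11.

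All 19 distal peaks held a CANNTG, as did 97.9% of distal Spin1 peaks of the genome. CAGCTG was found in 11 of 19 and in 48.5% of all, and CAGGTG in 10 of 19 and in 44.9% of all, so that the shares were near those of the rest. The MEF2 consensus, the motif of the factors that work with myogenic regulatory factors, was in 1 of 19 and in 11.8% of all. Repeats took up at most 34.9% of a peak, with a median of 7.99% and 12.1% over all.

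**Figure D5:**
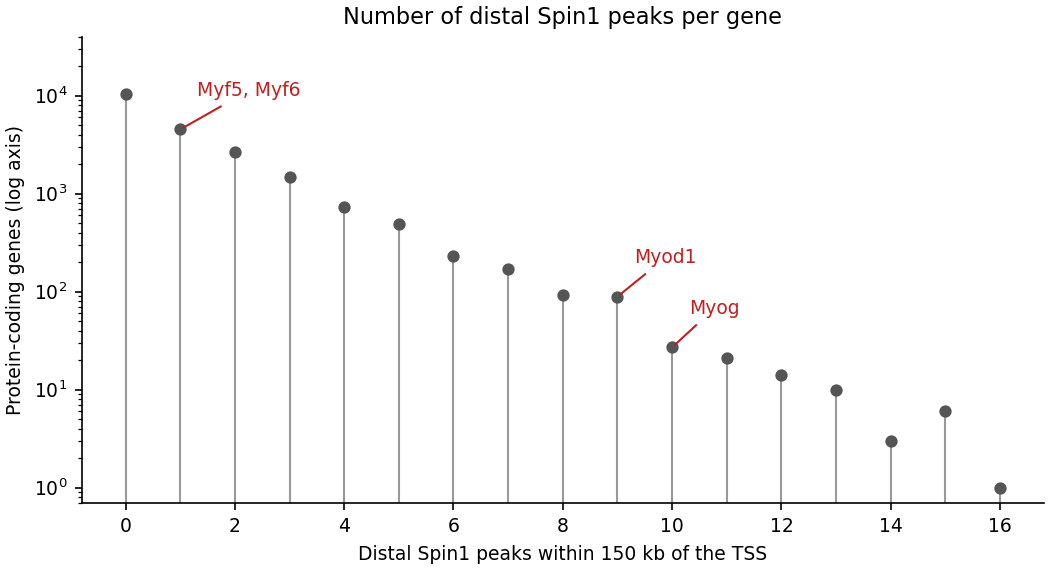
Number of protein-coding genes (log axis) by the number of distal Spin1 peaks within 150 kb of the TSS, here including peaks inside the gene itself. Myf5 and Myf6 have 1, Myod1 has 9 and Myog has 10, where the median of 21000 genes is 1 and the highest count is 16.

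The number of distal peaks depended on the score and on how finely the peaks were split. Of the 19 distal Spin1 peaks, 0 were among the 50% of Spin1 peaks with the highest score. With peaks less than 1 kb apart joined, a step added after the data were seen, Myod1 and Myog each had 5 distal Spin1 peaks, and 3.10% of protein-coding genes had at least as many. Without H3K4me3 there were then 3 at Myod1 and 4 at Myog, numbers reached by 0.905% and 0.157% of genes. Distal H3K4me3 peaks set these loci less apart: 28.4% of genes had at least the 5 distal H3K4me3 peaks of Myod1 and 15.1% at least the 7 of Myog.

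Of the genes that act with the myogenic regulatory factors, all but Ckm had both Spin1 and H3K4me3 at the promoter. All 10 E proteins and inhibitors carried both Spin1 and H3K4me3, among them Tcf12, an E protein partner, with a Spin1 peak of 3793 bp, and Id1, which keeps E proteins from binding, with 4857 bp. All 7 upstream regulators did so too, among them Pax7, the factor of muscle stem cells, with 5404 bp of Spin1 and 17266 bp of H3K4me3. Of 12 partners and targets, 11 had both, and Ckm, the muscle creatine kinase, had H3K4me3 of 2255 bp only. Over all protein-coding genes, 11903 had both, 2378 H3K4me3 only and 6719 no H3K4me3. The median number of distal Spin1 peaks was 2 for E proteins and inhibitors, 2 for upstream regulators and 3 for partners and targets. Id1 had 9, as many as Myod1, and Pax7 had 6. In none of these lists did a gene have more than 2 distal Spin1 peaks without H3K4me3, while Myod1 and Myog had 4 each. Outside these lists such counts were not limited to muscle genes. Cdh5, an endothelial marker without Spin1 at its promoter, had 3, and 73 of 21000 protein-coding genes had at least 4.

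The bHLH genes of other lineages were mixed in their promoters. Of 14 such genes, 4 had both peaks, 7 had H3K4me3 only and 3 had no H3K4me3. Of all 21000 protein-coding genes, 11903 had both, 2378 or 11.3% had H3K4me3 only and 6719 had no H3K4me3. The 7 with H3K4me3 only shared the state of Myf6, and included Neurod1, a neuronal factor, with 1133 bp and Neurog2 with 4114 bp. Spin1 peaks were narrow at Atoh1, with 751 bp, and Tal1, with 700 bp, while Hand2, a heart and limb factor, had 2007 bp. The latter lay within the range of 1813 to 4891 bp at Myf5, Myod1 and Myog, so the widths of the lists overlapped. The median number of distal Spin1 peaks was 0, with 9 of 14 genes at 0. Over all protein-coding genes the median was 1, with 49.9% at 0, so low counts were common. Lyl1, a blood factor with no H3K4me3 at its own promoter, had 11 in its window, more than Myod1 or Myog, together with 22 distal H3K4me3 peaks, so a high count did not mark occupied bHLH genes only.

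The labelled cell type was checked against marker promoters. Both peaks were present at 8 of 8 myoblast markers, which include Myod1 and Myf5 themselves, and at 11903 of 21000 protein-coding genes. Of 5 markers of fibroblasts or fibro-adipogenic cells, 3 had both and 2 had H3K4me3 only, so all 5 carried H3K4me3. Their median H3K4me3 width was 8411 bp, compared with 6862 bp for the myoblast markers. Of 4 endothelial markers, 0 had Spin1 and 3 had H3K4me3. Of 4 blood markers, 0 had Spin1 and 1 had H3K4me3, and of 4 neural and glial markers, 1 had both and 2 had H3K4me3 only. Preplated cultures can keep fibroblasts, and the part of such cells in the peaks described here was not tested.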

How the data were processed

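ChIP-seq was done on primary myoblasts with 1 library each for Spin1, H3K4me3 and input. Per the labels and the study's methods, paired-end reads were mapped to mm10 with Bowtie2, peaks were called by MACS 1.4.2 with input as control, and peaks with a false discovery rate above 1% were left out. The authors deposited each peak's position and score, that is, −log10 of the p-value multiplied by 10, from which read depth cannot be recovered. Weak binding can go unlisted where a library is shallow.

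From these lists, coordinates were counted from 1 and compared with curated transcripts of GRCm38 annotation release 108.20200622. Peaks overlapped from 1 bp on. Counts per gene used TSS±150 kb around the most upstream TSS, with distal meaning outside TSS±1 kb of every curated transcript. Motifs were counted on both strands in the reference sequence. Interval counts were tested on simulated data. Python 3.11.15, pandas 2.3.3 and pysam 0.24.0 were used. The members and gene lists were chosen with earlier results of these data known. Named were the members, the Spin1 peaks around them, neighbours with Spin1 and a few genes per list, picked after their values were seen. Alternatives covered score limits, windows and overlap rules. A few listed genes are not reported here by name.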

Additional observations from a re-analysis of the deposited data

How the results depend on the processing

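Of 62 alternative values for 11 results, 52 stayed within 1.5 times the reported number and 10 fell below that. With the 50% of peaks of each list with the highest score, Spin1 peaks numbered 1 at Myf6 and Myf5, 1 at Myod1 and 4 at Myog, and H3K4me3 peaks 2 at Myod1 and 9 at Myog. None of the 19 distal Spin1 peaks remained (0 of 19), so the distal peaks of Myod1 and Myog were absent under this limit. By construction, score limits removed weak peaks and merging lowered counts. With a score of at least 100, H3K4me3 peaks at Myod1 numbered 5. With peaks less than 1 kb apart merged, an alternative chosen after seeing the data, Spin1 peaks numbered 1 at Myf6 and Myf5 and 7 at Myod1, and H3K4me3 peaks 5 at Myod1. With the peak center required within TSS±1 kb, H3K4me3 was counted at 1 of the 4 genes and Spin1 at 2. With an overlap of at least 50% of the Spin1 peak required, Myog had 5 distal Spin1 peaks without H3K4me3. Windows of 100 kb, or of 150 kb counted from the TSS, which was also chosen later, kept every count within 1.5 times. No paired analysis was possible because each antibody had a single library and no comparison between groups was made.

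The lists hold no read counts, so depth is unknown, and whether Myf6 or the flanks of Myf5 lack Spin1 or fell under the calling limit cannot be told. Score differences between the lists also carry the depth of each library.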
